A study of Oryza sativa with 6 samples.

Results

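WRKY transcription factors were followed in seedlings of rice plants that carried transgenes for the RNA-dependent RNA polymerase gene OsRDR3. Members were all loci whose gene name, annotation name or protein name contained WRKY in either of 2 deposited expression tables. The rule found 9 loci among the 6922 loci present in at least 1 table, and searching every text column of the tables found the same number. These 9 are WRKY24, WRKY45-2, WRKY53, WRKY62, WRKY69, WRKY70, WRKY71, WRKY72 and WRKY76. Each carries the Gene Ontology terms for sequence-specific transcription factor activity and for regulation of transcription, which the rule did not use. Both tables list only loci that differed from wild type at an unadjusted p of at most 0.05, which were 24.6% and 24.4% of the loci tested, so other WRKY genes of rice are not analysed here. Listing therefore already required a difference, and counts over the listed members describe them without adding support.

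WRKY proteins are plant transcription factors named for a conserved run of amino acids in their DNA-binding domain, which also holds a zinc finger. They bind the W-box, a short promoter element that is common in genes switched on by pathogens and wounding, and many WRKY genes carry W-boxes themselves. In rice they act in both directions: some members raise resistance to bacterial blight and blast fungus, while others hold defence genes down, and several also tie defence to the growth hormones gibberellin and brassinosteroid.

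The study sequenced total RNA from seedlings aged 5 weeks of Pusa Basmati 1, an indica cultivar. Its 6 libraries formed 3 groups of 2: wild type, a transgenic group made to over-express OsRDR3 (OE), and a transgenic group labelled as an OsRDR3 knock-down (KD). The promoter, the construct, the number of independent lines and whether the 2 libraries of a group came from separate plants were not given in the sources used here. If they did not, the p-values measure only technical spread. The deposited values are 1 pooled FPKM per group and locus, meaning fragment numbers corrected for transcript length and library size, so spread between libraries cannot be shown and depth is unknown.

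A check on the labels touches every direction given for the KD plants. BGIOSGA002194 is an RNA-dependent RNA polymerase locus that no table names as OsRDR3. It was higher under both labels in the authors' deposited tables, at 69.5 FPKM against 0.190 in KD and 58.7 FPKM against 0.198 in OE. A second such locus, BGIOSGA009008, rose under the knock-down label from 4.40 to 7.63 FPKM (q = 0.000868) in the authors' deposited table and was not listed in OE. The tables do not say which of them, if either, is the target. If BGIOSGA002194 is, its FPKM in the KD libraries goes against their label. Whether reads there come from the native gene or from the construct cannot be told apart here. The KD libraries are therefore called "labelled knock-down" below. Among listed loci the 2 tables leaned in opposite ways, with 34.9% higher under the knock-down label and 67.8% higher in OE. Listed loci had a median log2 fold change of -0.58 under the knock-down label and 0.67 in OE.

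The 9 genes lie on chromosomes 1, 2, 5, 9 and 11 and on a scaffold that the tables do not assign to a chromosome. Coordinates are those of the tables, whose genome build was not given in the sources used here. WRKY24 (BGIOSGA004722) spans chromosome 1 from 38765038 to 38767213, and WRKY71 (BGIOSGA007670) spans chromosome 2 from 5273341 to 5274734. Chromosome 5 holds 3 members: WRKY45-2 (BGIOSGA019621) from 15887981 to 15889142, WRKY53 (BGIOSGA019646) from 16830682 to 16832553, and WRKY70 (BGIOSGA017876) from 24759224 to 24761646. WRKY72 (BGIOSGA035289) spans chromosome 11 from 14016988 to 14019989. WRKY69 (BGIOSGA040489) spans 44560 to 45614 of the unassigned scaffold, and whether the build also holds a copy on a chromosome was not tested.

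WRKY76 (BGIOSGA029758, 13494844 to 13495931) and WRKY62 (BGIOSGA029757, 13511146 to 13512859) stand side by side on chromosome 9. They are separated by 15214 bases with 0 listed loci between them. In RefSeq's table of the japonica assembly ASM3414082v1, 4 of the 9 members were matched by name, and WRKY62 and WRKY76 are neighbours there too, with 0 annotated genes between. No other listed locus overlapped any member. Of the tables' annotation, WRKY71 alone among the 9 carries the general defense response term and the nucleus term. More specific defence terms were not counted. WRKY53 has 19 biological process terms, including the MAP kinase cascade and salicylate and jasmonate signalling.

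Wild-type levels, which are per transcript length, put WRKY53 and WRKY45-2 far above the other members. WRKY53 stood at 13.4 FPKM and WRKY45-2 at 9.94 FPKM in the authors' deposited KD table. WRKY71 followed at 1.60 FPKM, WRKY24 at 1.16, WRKY62 at 0.878, WRKY70 at 0.686 and WRKY72 at 0.343, again in the authors' deposited KD table. WRKY76 at 2.97 FPKM and WRKY69 at 2.70 FPKM were listed in the authors' deposited OE table alone, and would fall between WRKY45-2 and WRKY71. The wild-type values of the OE table were 1.04 times those of the KD table at the median of 1714 shared loci (range 1.04 to 1.05), so the order holds in either table. Without a spread between libraries, neighbours in this order, such as WRKY76 and WRKY69, cannot be said to differ.

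**Figure D1:**
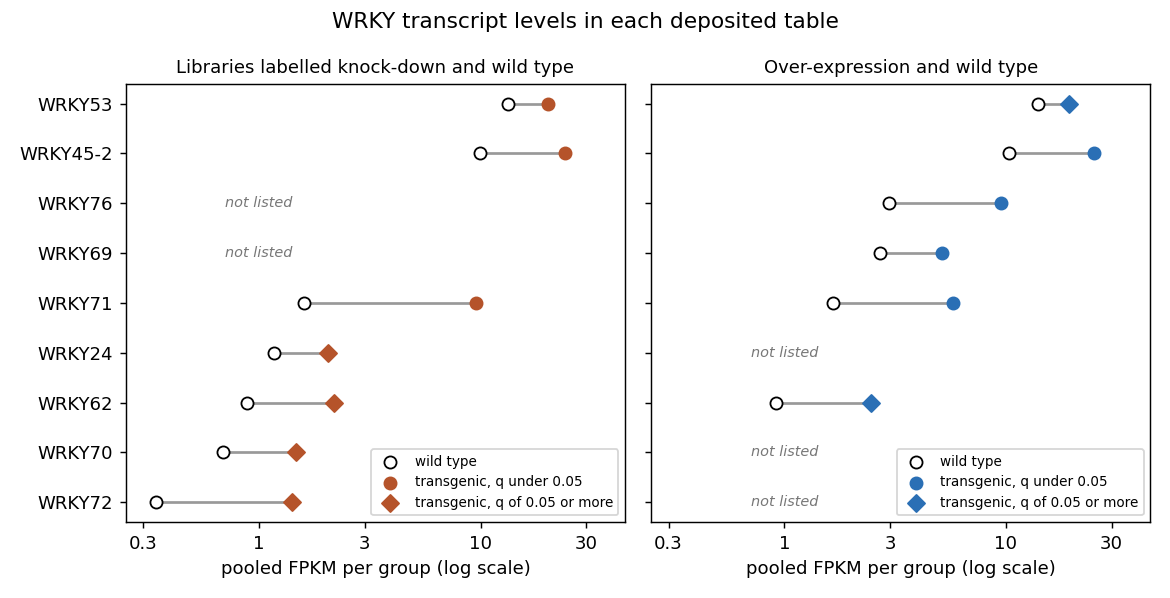
Pooled FPKM of the 9 WRKY genes in wild type (open circles) and in the transgenic group (filled symbols) of each deposited table, on a log axis, with genes ordered by wild-type level and grey lines joining the values of 1 gene. All transgenic symbols lie to the right of wild type, WRKY71 has the longest line (1.60 to 9.50 FPKM under the knock-down label), and genes absent from a table are written as not listed.

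Setting plants labelled knock-down against wild type asks how the WRKY transcripts differ under that label. Of the 9 members 7 were listed and all of them stood above wild type. WRKY71, WRKY45-2 and WRKY53 rose, and WRKY62, WRKY70, WRKY24 and WRKY72 did not pass the authors' q under 0.05. The background share of listed loci that rose by this rule was 17.6%, or 4.35% of all 17618 loci tested. At q under 0.01 and, separately, with an added 2-fold minimum, WRKY71 and WRKY45-2 passed and WRKY53 did not, and 10.3% and 11.6% of listed loci rose by those rules. The 7 listed members had a median log2 fold change of 1.27, beside -0.58 for all listed loci. The tests are those of Cuffdiff as deposited, and the pooled values hide the spread behind them.

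Group IIa of the family, whose proteins pair through a leucine zipper, was represented by WRKY71 and WRKY62. WRKY71 raises resistance to bacterial blight when over-expressed in rice and also holds back gibberellin signalling in the seed. Its transcript rose 5.95-fold, from 1.60 FPKM in wild type to 9.50 FPKM, at p = 5e-05 and q = 0.000868 in the authors' deposited table. Only 3.27% of listed loci had a larger log2 fold change than its 2.57, and with a pseudocount of 1 FPKM the value was 2.02. WRKY62 binds the receptor kinase XA21 and lowers resistance to bacterial blight when over-expressed. Its level was 0.878 FPKM in wild type against 2.17 FPKM under the label in the authors' deposited table, a log2 fold change of 1.31 that did not pass with q = 0.0842. WRKY76 was not listed under this label, and its level there is not analysed here.

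WRKY45-2 is the allele of WRKY45 known from indica rice, a factor of the salicylate pathway that is needed for resistance primed by chemical activators. Under the knock-down label it rose 2.42-fold, from 9.94 to 24.0 FPKM, at q = 0.000868 in the authors' deposited table. In absolute terms this was the largest gain among the 7 listed members, at 14.1 FPKM, followed by 7.91 FPKM for WRKY71 and 6.85 FPKM for WRKY53. After the rise WRKY45-2 stood above WRKY53, the reverse of their order in wild type.

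WRKY53, WRKY24 and WRKY70 belong to group I, which has a pair of WRKY domains, and they are close relatives. WRKY53 is phosphorylated by MAP kinases in the response to chitin and blast fungus, and it also promotes brassinosteroid responses. It rose 1.51-fold in the authors' deposited table, from 13.4 to 20.2 FPKM with q = 0.0159, the smallest fold change of the 7. WRKY24, a repressor of gibberellin and abscisic acid responses in seed, was at 1.16 and 2.05 FPKM in the authors' deposited table, with a log2 fold change of 0.82 and q = 0.0975. WRKY70, which favours herbivore defence over growth, was at 0.686 and 1.47 FPKM in the authors' deposited table, with a log2 fold change of 1.10 and q = 0.0636. As deposited, the 2 less abundant relatives thus had larger fold changes than WRKY53 without passing the threshold. With a pseudocount of 1 FPKM this order was reversed. The log2 fold changes were then 0.50 for WRKY24, 0.55 for WRKY70 and 0.56 for WRKY53.

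WRKY72, which lowers resistance to bacterial blight and acts on jasmonate synthesis, had the lowest wild-type level. In the authors' deposited table its value was 0.343 FPKM in wild type against 1.40 FPKM under the label. This is 4.10-fold (log2 fold change 2.04), but p was 0.0497 and q was 0.190, so it lay just inside the limit for listing. With a pseudocount of 1 FPKM its log2 fold change was 0.84, below that of WRKY45-2 at 1.19. The authors' deposited table marks a locus UP at a log2 fold change of at least 1 whatever its q-value, and WRKY72, WRKY62 and WRKY70 carry that mark without passing q under 0.05.

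**Figure D2:**
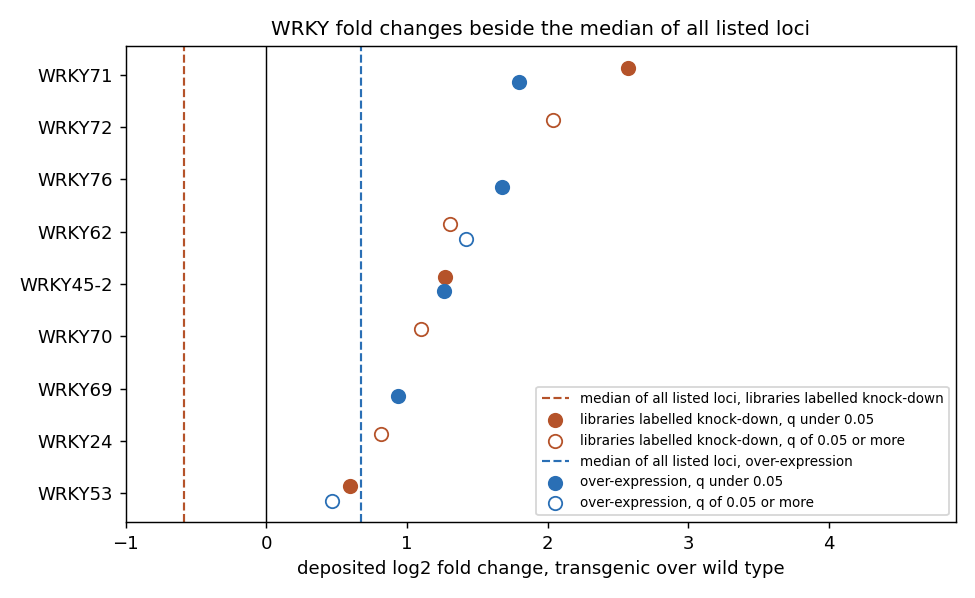
Deposited log2 fold change over wild type for each WRKY gene, in plants labelled knock-down and in over-expression plants, where filled points passed q under 0.05, open points did not and dashed lines give the median of all listed loci in each table. All points lie above 0, from 0.47 for WRKY53 in over-expression to 2.57 for WRKY71 under the knock-down label, and WRKY53 in over-expression lies below the dashed line of its own table at 0.67.

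Setting OE plants against wild type asks how these transcripts differ when OsRDR3 is over-expressed. In OE 6 of the 9 members were listed, all of them above wild type. WRKY71, WRKY76, WRKY45-2 and WRKY69 rose, and WRKY62 and WRKY53 did not pass. By the same rule 37.9% of listed loci rose, or 9.24% of the 17596 tested. WRKY69 was lost at q under 0.01, by which 21.2% of listed loci rose, and with an added 2-fold minimum, by which 22.4% rose. The 6 listed members had a median log2 fold change of 1.34, and all listed loci had one of 0.67.

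Group IIa was represented by 3 genes in OE. WRKY71 rose 3.47-fold in OE, from 1.67 to 5.79 FPKM, at q = 0.00105 in the authors' deposited table. WRKY76, a repressor that lowers blast resistance and raises cold tolerance when over-expressed, rose 3.19-fold in the authors' deposited table, from 2.97 to 9.48 FPKM, and its q was 0.00105. Its neighbour WRKY62 had a log2 fold change of 1.42 against 1.67 for WRKY76, but its levels in the authors' deposited table were 0.916 and 2.45 FPKM, at q = 0.0663. The levels of the 2 neighbouring genes in OE differed 3.86-fold, and 1 of the 2 passed. With a pseudocount of 1 FPKM the largest log2 fold change in OE was that of WRKY76, at 1.40, ahead of WRKY71 at 1.35. WRKY62 was then at 0.85, further from its neighbour than in the deposited values.

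In the authors' deposited table WRKY45-2 rose 2.40-fold in OE, from 10.4 to 24.9 FPKM, at q = 0.00105. This was the highest level of any member in that table. WRKY69 rose 1.91-fold in the authors' deposited table, from 2.70 to 5.17 FPKM with p = 0.0056 and q = 0.0440, close to the threshold. WRKY53 was at 13.9 FPKM in wild type against 19.3 FPKM in OE in the authors' deposited table, with a log2 fold change of 0.47 and q = 0.0741. Relative to the median of listed loci WRKY53 was slightly lower, at -0.20. The 4 members that rose stayed higher, from 0.26 for WRKY69 to 1.13 for WRKY71. WRKY24, WRKY70 and WRKY72 were not listed in OE.

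Of the 9 members 4 were listed in both tables, which share the wild-type libraries, so their values are set side by side without a test. WRKY71 had a log2 fold change of 2.57 under the knock-down label and 1.80 in OE, a gap of 0.78 in log2 units. WRKY45-2 had 1.27 in both, a gap of 0.01, and dividing the OE level by the ratio of wild-type values between tables put it at 23.9 FPKM beside 24.0 FPKM. WRKY53 had 0.60 and 0.47, and it passed q under 0.05 under the knock-down label and not in OE. WRKY62 had 1.31 and 1.42 and passed in neither. Whether any of these values differ between the transgenic groups was not tested, because single libraries are not in the tables and each table was scaled separately. WRKY71 and WRKY45-2 were the 2 of these 4 members that rose in both tables. Of the 1714 loci listed in both tables, 682 passed in both, 270 of them higher in both.

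The direction of listed loci depended on wild-type level. Under the knock-down label 88.3% of listed loci below 1 FPKM in wild type were higher, and WRKY62, WRKY70 and WRKY72 fall in that range. Between 1 and 3 FPKM, the range of WRKY71 and WRKY24, the share was 48.9%. From 3 to 10 FPKM, the range of WRKY45-2, it was 25.8%, and at 10 FPKM or more, the range of WRKY53, it was 13.5%. Rises with q under 0.05 made up 24.0%, 14.3% and 8.82% of listed loci in these last 3 ranges. In OE the share of higher loci was 95.7% below 1 FPKM, 78.4% from 1 to 3 FPKM, 62.5% from 3 to 10 FPKM and 50.7% at 10 FPKM or more. WRKY62 falls in the first of these ranges, WRKY71, WRKY76 and WRKY69 in the second, and WRKY45-2 and WRKY53 in the last. Rises with q under 0.05 made up 48.2%, 40.0%, 35.2% and 33.6% of listed loci in the 4 ranges. The direction of WRKY62 in both tables, of WRKY70 and WRKY72 under the knock-down label, and of WRKY71, WRKY76 and WRKY69 in OE is therefore the one that most listed loci of their level shared.

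**Figure D3:**
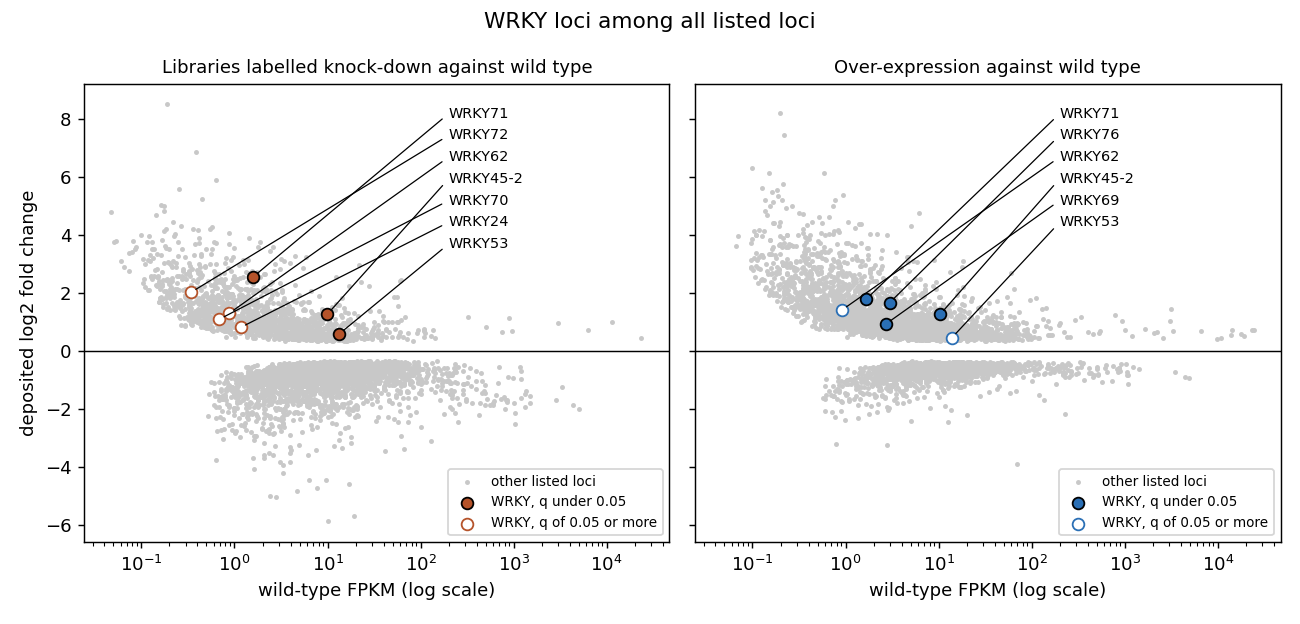
Deposited log2 fold change against wild-type FPKM (log axis) for every listed locus of each table in grey, with WRKY loci in colour, filled where q was under 0.05. Below 1 FPKM in wild type few grey points lie under 0 (88.3% are higher under the knock-down label and 95.7% in over-expression), while WRKY45-2 and WRKY53 lie where both directions are well filled.

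Other transcription factors were counted beside the WRKY genes. Loci with the same Gene Ontology term for transcription factor activity, without WRKY, numbered 107 under the knock-down label, where 22 rose, 30 fell and the median log2 fold change was -0.45. In OE there were 89, of which 27 rose and 10 fell, with a median of 0.76. The factor families searched by name (MYB, NAC, bZIP, MADS, homeobox, bHLH, ethylene-responsive, AP2, heat stress, GATA, DOF, TCP and auxin response factors) held 20 listed loci under the knock-down label, 3 rising and 14 falling, and 17 in OE, 13 rising and 1 falling. Over all listed loci, 17.6% rose and 36.7% fell under the knock-down label, and 37.9% rose and 13.6% fell in OE. The share of the Gene Ontology set that rose, 20.6% and 30.3%, was near these. Of the families searched by name 15% and 76.5% rose, and of the listed WRKY loci 42.9% and 66.7%. Loci with the defense response term, without WRKY71, leaned higher under the knock-down label as the WRKY loci did. There 55 were listed, 20 rose, 12 fell and the median log2 fold change was 0.70, and 36.4% of them rose. In OE 33 were listed, 12 rose and 7 fell, also 36.4% rising, with a median of 0.72. The median wild-type level of this set was 1.14 FPKM in the KD table and 2.38 FPKM in the OE table. All listed loci had medians of 5.53 and 4.76 FPKM, and listed loci of lower wild-type level were more often higher in both tables. The part of wild-type level in the lean of this set was not tested. WRKY loci had 3 rising and 0 falling under the knock-down label and 4 and 0 in OE. No test of these sets against each other was made, so whether any of this is particular to WRKY genes cannot be said.

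Genes that act with WRKY factors in rice defence were taken from a list of 91 symbols, covering receptors, kinases, salicylate signalling, partners, pathogenesis-related proteins, diterpenoid phytoalexins, jasmonate and ethylene synthesis, and phenylpropanoids. Under the knock-down label 7 were listed, 1 rose and 2 fell, beside background shares of 17.6% and 36.7% of listed loci. In OE 4 were listed, 2 rose and 1 fell, beside 37.9% and 13.6%. No receptor, salicylate signalling or phenylpropanoid symbol of the list matched a listed locus. Matching was by gene symbol alone, so a listed locus that carries no such symbol would be missed. The list's symbol RAC1 matched a locus annotated as actin-1 in OE, which was left out.

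Upstream of WRKY53, the MAP kinase MPK3 (named MPK5 in the tables) was at 1.41 and 2.43 FPKM under the knock-down label and at 1.47 and 2.97 FPKM in OE in the authors' deposited tables. It passed in neither, with q = 0.177 and q = 0.0756. RBOHB, an NADPH oxidase of the defence burst, was at 85.1 and 65.6 FPKM under the knock-down label in the authors' deposited table, at q = 0.180. Among defence outputs, the class IV chitinase gene CHT4 (Cht4 in the tables) rose from 6.39 to 20.9 FPKM under the knock-down label and from 6.68 to 14.6 FPKM in OE in the authors' deposited tables, with q = 0.000868 and q = 0.00348. In the authors' deposited table PR10A, a pathogenesis-related gene, was at 0.562 and 5.80 FPKM under the knock-down label, without passing (q = 0.124).

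CPS2, which makes the precursor of diterpenoid phytoalexins, moved the other way from CHT4. It fell to 0.653 FPKM from 3.31 under the knock-down label and to 1.78 FPKM from 3.46 in OE in the authors' deposited tables, with q = 0.000868 and q = 0.00673. AOC, an enzyme of jasmonate synthesis, fell by 0.82 on the log2 scale under the knock-down label in the authors' deposited table, with q = 0.000868. ACO1, which makes ethylene, was at 6.97 and 4.84 FPKM under the knock-down label (q = 0.185) and rose from 7.26 to 12.6 FPKM in OE (q = 0.0117) in the authors' deposited tables. Relative to the median of listed loci in each table ACO1 was at 0.06 and 0.13. RBOHB under the knock-down label was at 0.21 by this measure, in place of -0.38. That median covers listed loci alone and follows how many of them lay above or below wild type. It is not a shift of all loci tested, so it cannot settle whether these signs are real. ACO1, CHT4, CPS2 and MPK3 were the genes of the list present in both tables, and of these CHT4 and CPS2 passed in both. Among all 1714 loci present in both tables, 682 passed in both.

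**Figure D4:**
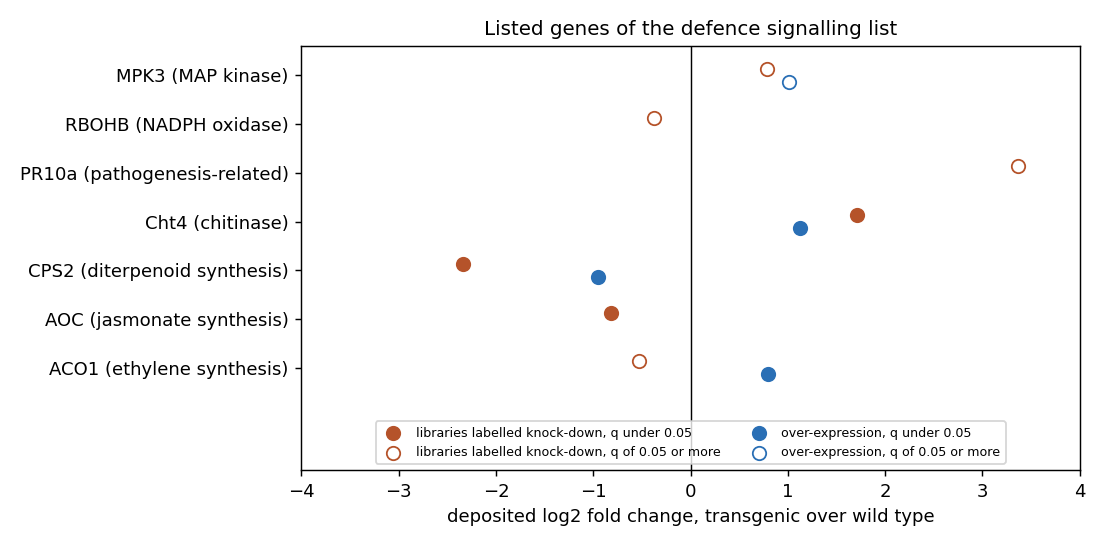
Deposited log2 fold change over wild type of the genes from the defence signalling list that were listed in either table, filled where q was under 0.05. Cht4 lies above 0 and CPS2 below 0 in both comparisons, while ACO1 lies at -0.53 under the knock-down label and at 0.80 in over-expression. Relative to the median of listed loci in each table the ACO1 values were 0.06 and 0.13.

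Tissue markers were counted beside all loci tested, of which 24.6% were listed under the knock-down label and 24.4% in OE. At q under 0.05, 36.7% of listed loci fell and 17.6% rose under the knock-down label. In OE 13.6% of listed loci fell. The number of markers listed is therefore not read as a result about these tissues. Of 8 leaf markers, 2 were listed, RBCS and PSAH, and their summed level was 4797 FPKM in wild type and 1329 FPKM under the knock-down label, and 5002 and 2725 FPKM in the OE table. Both fell under the knock-down label (q = 0.000868 each), and in OE PSAH fell with q = 0.00105 while RBCS, most of the sum, did not pass, at q = 0.189, in the authors' deposited tables. Of 9 root markers, NAS1 and NAS2 were listed under the knock-down label, with a summed level of 1.23 FPKM in wild type against 5.63 FPKM under the label, and 0 were listed in OE. In the authors' deposited table NAS2 rose with q = 0.00616 and NAS1 did not pass, at q = 0.123. No symbol of the 9 floral or 6 senescing leaf markers matched a locus in either table, and 0 listed markers were at 0 FPKM. Markers too were matched by gene symbol alone, so loci without such a symbol would be missed. The part of tissue make-up in the WRKY values was not tested, and in whole seedlings fewer cells of a type and less RNA per cell cannot be told apart.

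Among 140 annotated loci that passed in both tables, 5 lay closest to the mean pair of log2 fold changes of WRKY71 and WRKY45-2, which was 1.92 and 1.53. Closeness was the straight-line distance over the 2 comparisons, which share wild type. The mean lies between 2 unlike genes, WRKY71 at 2.57 and 1.80 and WRKY45-2 at 1.27 in both. Closeness to it is therefore not likeness to either gene. Nearest was a pyruvate, phosphate dikinase locus (BGIOSGA010483) at a distance of 0.02, with 1.91 and 1.51. With a pseudocount of 1 FPKM its values were 0.81 and 0.61. A RING-type ubiquitin ligase (BGIOSGA004934), a beta-amylase (BGIOSGA012615), a phosphotransferase (BGIOSGA018669) and a peroxidase (BGIOSGA023719) followed at distances of 0.19, 0.22, 0.31 and 0.40. The dikinase, the ubiquitin ligase and the phosphotransferase were low in wild type. They stood at 0.377, 0.438 and 0.602 FPKM in the authors' deposited KD table. The beta-amylase, a starch-degrading enzyme, rose from 1.94 to 7.25 FPKM under the knock-down label and from 2.02 to 5.01 FPKM in OE in the authors' deposited tables.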

How the data were processed

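Libraries came from total RNA extracted with Trizol, per the labels' protocols. Per the submitters' processing notes, the tools were Cufflinks 2.2.1 and Cuffdiff, while the aligner, genome build and Cuffdiff version were not given in the sources used here. In the 2 tables the authors deposited, FPKM is 1 pooled value for each group at each locus. The log2 fold change in the deposited tables was recomputed as the log2 ratio of transgenic over wild-type FPKM with no pseudocount. The deposited p-values and q-values are the authors', and a locus was called at q under 0.05. No test was refitted, since the tables hold no counts and no single libraries, and columns of unassigned libraries numbered 0.

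The number of loci tested was recovered from the ratio of p to q, whose product with it gives whole ranks (relative tolerance 3e-06) for 89.7% of p levels in the table labelled knock-down (next best number 5.30%) and 91.1% in over-expression (next best 24.4%). Tested on simulated data, the recovery gave the exact number in 3 of 3 simulated tables of 12000 to 18777 tests. The ranks imply 279 and 276 further loci at p of at most 0.05 that are not analysed here.

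All members are named, with every called gene of the defence list, the listed tissue markers and the 5 loci of nearest pattern. Uncalled genes of the defence list, and the comparison with other factors by Gene Ontology term and by wild-type level (the defense response term included), were added after values were seen. Members and lists were chosen with earlier results of these data known. Pseudocounts of 0.1 and 1 FPKM, centring on the median of listed loci, a minimum of 1 FPKM, q under 0.01 and a 2-fold minimum were tried. Computation used Python 3.11.15 and pandas 2.3.3.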

Additional observations from a re-analysis of the deposited data

How the results depend on the processing

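At q under 0.01 the WRKY loci called numbered 2 under the knock-down label and 3 in over-expression (10.3% and 21.2% of listed loci rose by that rule), and the same numbers passed with an added 2-fold minimum (11.6% and 22.4%). WRKY53 was lost under the knock-down label and WRKY69 in over-expression, in each case by both rules. At an unadjusted p under 0.05 there were 7 and 6, which is every listed member, as 24.6% and 24.4% of loci tested are listed at that p. A minimum of 1 FPKM in the higher group, and centring, left 3 and 4. The minimum could remove none, as 0 listed members were under 1 FPKM in the transgenic group. Centring raises every value under the knock-down label, so it could have removed a rise in over-expression alone. The median log2 fold change of listed WRKY loci was 0.76 and 1.02 with a pseudocount of 1 FPKM, 1.22 and 1.29 with 0.1 FPKM, and 1.85 and 0.67 after centring, for the knock-down label and over-expression in turn. Of these settings centring alone can change a sign, and no called gene changed sign under it. Among uncalled genes, centring turned WRKY53 in over-expression to -0.20 and, under the knock-down label, ACO1 to 0.06 and RBOHB to 0.21. At q under 0.01 the defence list kept its 1 rise and 2 falls under the knock-down label. In over-expression it lost the rise of ACO1 and kept CHT4 higher and CPS2 lower. The shares of listed loci that rose by that rule are the 10.3% and 21.2% above, and the shares that fell were not computed.

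No paired analysis was possible because the tables hold 1 pooled value per group, and for the same reason leaving out single replicates was not run. Depth is unknown, so how far low counts limit WRKY72, WRKY70 and WRKY62, all under 1 FPKM in wild type, cannot be given.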
